A study of Mus musculus with 12 samples.

Results

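The respiratory chain passes electrons from NADH and succinate to oxygen through complexes I to IV, and complex V, the ATP synthase, uses the resulting proton gradient to make ATP. Complexes I, III, IV and V are built from subunits encoded in 2 genomes, so that their assembly needs mRNAs made in the nucleus and mRNAs made inside mitochondria, whereas complex II is encoded by nuclear genes alone. In the mitochondrial genome both strands are transcribed as long precursors, which are cut into single mRNAs, and the levels of these mRNAs are then set by RNA processing and stability as well as by transcription.

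Genes were selected by name: the mitochondrial mRNAs of the Nd, Co, Atp and Cytb series, and the nuclear Nduf, Sdh, Uqcr, Cox and Atp5 families, with at least 10 counts in 2 or more libraries. Of 96 names that matched, 94 of the 16283 genes in the table were kept: 13 mitochondrial genes, 78 nuclear subunit genes and 3 pseudogenes. The nuclear genes were 37 of complex I, 4 of complex II, 8 of complex III, 12 of complex IV and 17 of complex V, and the mitochondrial genes were 7 of complex I, 1 of complex III, 3 of complex IV and 2 of complex V. Complexes were assigned by gene name alone. Ndufa4, whose protein has been placed in complex IV, is therefore counted under complex I. Cyc1 of complex III and Ndufab1 of complex I did not match the names and are not in these counts. All 94 kept genes passed the filter on low counts and were among the 13601 genes tested. The pseudogenes Atp5pb-ps, Ndufa12-ps and Ndufb4c are left out of the counts below, and the 2 others, Cox5b-ps and Cox7c-ps1, had too few counts. The row Ndufb1 was matched through a synonym to an entry annotated as a long non-coding RNA, so its values may not be those of the subunit's mRNA.

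RNA was measured in 12 libraries of 4T1, a cell line from a mammary carcinoma of a BALB/c mouse, as whole-number read counts per gene. The 6 groups of 2 libraries were sgRNA1 cells with IFN-gamma, sgRNA1 cells with vehicle, sgRNA2 cells with IFN-gamma, sgRNA2 cells with vehicle, control cells with IFN-gamma and control cells with vehicle. sgRNA1 and sgRNA2 are guides against Cebpd, which encodes an inflammation-related transcription factor, and control cells carried a guide against the Rosa26 locus. IFN-gamma, a cytokine of the immune response, was given at 20 ng/ml for 24 hours. The labels do not say whether each guide line is a clone or a pool, nor whether the libraries within a group are separate cultures or repeats of 1 culture, so p-values measure only the spread between these libraries, which may be technical.

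Total counts lay between 16912710 and 24784371 per library. Cebpd mRNA was present in every library of the guide lines, at 45.9 and 45.6 CPM in sgRNA1 cells and 30.2 and 29.4 CPM in sgRNA2 cells with IFN-gamma, against 53.5 and 49.1 CPM in control cells. With vehicle it was 13.6 and 13.4 CPM in sgRNA1 cells and 10.6 and 8.51 CPM in sgRNA2 cells, against 9.09 and 7.13 CPM in control cells, so the mRNA level does not check the labels of the guide lines. The epithelial markers Krt8, Krt18, Krt7, Epcam and Cdh1 were at 179.9 CPM or more in every library, Krt19 was at 96.9 to 269 CPM and the basal keratin Krt14 at 4.37 to 19.6 CPM, while Ptprc, Itgam, Pecam1, Cdh5 and Myh1 had at most 10 counts. Pdgfra, a mesenchymal marker, was at 13.8 to 28.8 CPM. CPM, a depth-corrected count, is given here after scaling by trimmed mean of M values (TMM), fold changes are log2 ± SE from edgeR's quasi-likelihood test, and a gene was called at a Benjamini-Hochberg adjusted p below 0.05 over all tested genes.

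A copy of the mitochondrial genome in the nucleus bears on how its mRNAs were counted. Chromosome 1 holds 7 annotated pseudogenes, side by side between Gm28439 and Gm29216, that match mt-Nd4, mt-Nd4l, mt-Nd3, mt-Co3, mt-Atp6, mt-Co2 and mt-Co1. Over the aligned bases 6 of them are identical to the mitochondrial gene, and Gm29216 differs from mt-Co1 at 1 base (A1066T, counted from the start of mt-Co1). The start of mt-Co2 (chrM:7013-7072, plus strand) and the same stretch of its copy Gm28661 (chr1:24615506-24615565, minus strand, GRCm38) are shown because a read from either cannot be placed.

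mt-Co2: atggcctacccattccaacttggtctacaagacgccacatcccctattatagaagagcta
Gm28661: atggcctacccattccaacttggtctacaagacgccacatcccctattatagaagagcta

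A second feature is that mitochondrial genes lie end to end and some overlap. The last 43 bases of mt-Atp8, a small membrane subunit of ATP synthase, are also the first 43 of mt-Atp6, which forms the proton channel (chrM:7927-7969, plus strand, GRCm38). They are shown because mt-Atp8 is only 204 bases long, and how reads in such overlaps were counted is not given in the sources used here.

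mt-Atp8 and mt-Atp6 overlap: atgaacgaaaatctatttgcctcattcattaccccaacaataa

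Nuclear subunit genes have promoters of their own, many with sites for NRF1, GABPA (also called NRF2) and YY1, factors known for their part in mitochondrial gene expression. Promoter windows of 250 bases before to 50 after the start were available from RefSeq (GRCm38.p6) for 66 of the 78 nuclear genes. The NRF1 motif GCGCANGCG on either strand was in 30.3% of these genes, against 7.03% of 27025 genes with a window and 15.3% of 9960 other tested genes. The GABPA motif CCGGAAG was in 25.8%, against 9.93% and 20.5%, and the YY1 motif AAGATGGC in 15.2%, against 3.19% and 5.24%. The 3 promoters below belong to Atp5k and Ndufs6, which were lower with IFN-gamma in all 3 lines, and to Uqcrh, which fell further in the guide lines than in control cells, and were chosen after these values were seen. Capitals mark the matches: NRF1 then GABPA in Atp5k (chr5:108434350-108434649, minus strand), NRF1 then YY1 in Ndufs6 (chr13:73328433-73328732, minus strand), and GABPA in Uqcrh (chr4:116075021-116075320, minus strand). The NRF1 letters in Atp5k read the same on both strands and so count as 2 overlapping matches. A match is a description of the letters and not a measured binding site.

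Atp5k: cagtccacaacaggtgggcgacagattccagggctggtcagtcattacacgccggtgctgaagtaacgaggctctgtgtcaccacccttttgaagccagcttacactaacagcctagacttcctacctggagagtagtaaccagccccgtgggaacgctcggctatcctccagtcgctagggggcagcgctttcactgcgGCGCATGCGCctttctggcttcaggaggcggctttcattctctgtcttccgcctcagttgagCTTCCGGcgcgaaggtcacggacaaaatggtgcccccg
Ndufs6: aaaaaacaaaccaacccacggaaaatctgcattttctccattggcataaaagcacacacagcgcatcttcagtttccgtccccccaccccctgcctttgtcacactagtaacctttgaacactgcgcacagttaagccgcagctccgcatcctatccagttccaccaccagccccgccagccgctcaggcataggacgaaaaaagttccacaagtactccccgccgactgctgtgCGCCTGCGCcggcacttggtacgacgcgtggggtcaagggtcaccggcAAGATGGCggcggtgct
Uqcrh: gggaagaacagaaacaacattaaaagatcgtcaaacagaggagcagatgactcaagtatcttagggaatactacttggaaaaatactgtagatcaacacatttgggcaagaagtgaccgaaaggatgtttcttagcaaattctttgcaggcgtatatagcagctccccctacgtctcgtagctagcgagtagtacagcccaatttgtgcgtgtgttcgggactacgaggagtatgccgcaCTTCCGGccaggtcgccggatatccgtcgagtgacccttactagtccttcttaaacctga

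The share of all counts on the 13 mitochondrial mRNAs went in opposite directions with IFN-gamma in the guide lines and in control cells. In sgRNA1 cells it was 0.510% and 0.507% with IFN-gamma, against 0.770% and 0.793% with vehicle. In sgRNA2 cells it was 0.571% and 0.493% with IFN-gamma, against 1.07% and 1.08% with vehicle. In control cells it was 0.993% and 1.14% with IFN-gamma, against 0.636% and 0.588% with vehicle, and in none of the 3 lines did the treated and untreated libraries overlap.

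The share on the 78 nuclear subunit mRNAs was lower with IFN-gamma in all 3 lines. It averaged 1.32 ± 0.0503% in sgRNA1 cells with IFN-gamma and 1.78 ± 0.00337% with vehicle, 1.45 ± 0.0483% in sgRNA2 cells with IFN-gamma and 1.65 ± 0.0370% with vehicle, and 1.12 ± 0.0128% in control cells with IFN-gamma and 1.495 ± 0.0196% with vehicle (SD, n = 2 each). Mitochondrial counts per nuclear count were therefore 0.880 and 1.03 in control cells with IFN-gamma, and between 0.348 and 0.658 in the other 10 libraries. Adding the chromosome 1 copies to the mitochondrial counts gave 1.16 and 1.30 in control cells with IFN-gamma, against 0.468 to 0.840 elsewhere. These sums over a list were described by library and not tested.

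**Figure D1:**
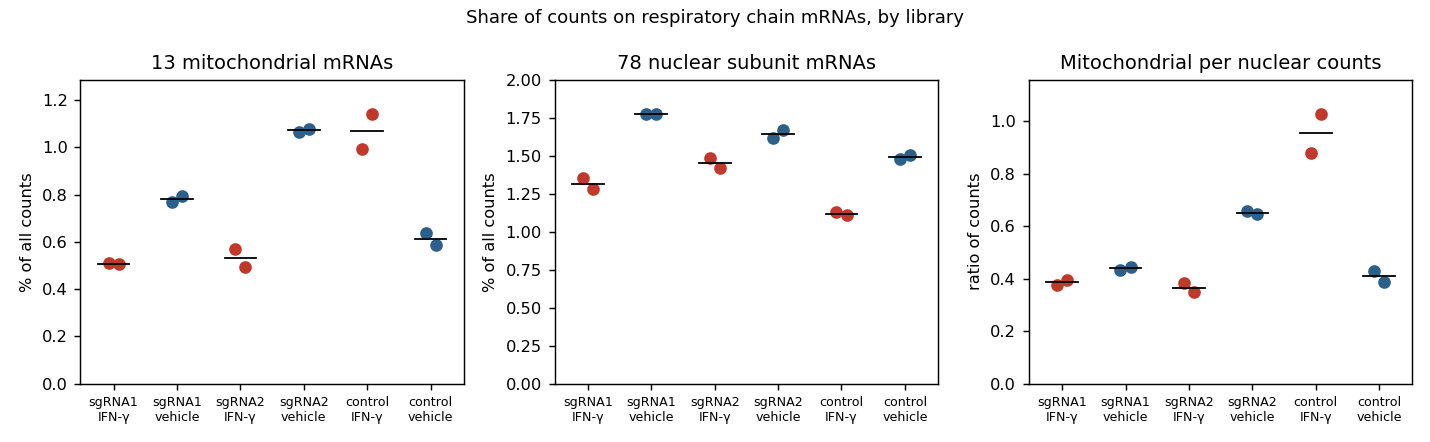
Share of all counts on the 13 mitochondrial mRNAs (left, %), on the 78 nuclear subunit mRNAs (middle, %), and mitochondrial counts per nuclear count (right, ratio); points are libraries, red with IFN-γ and blue with vehicle, and bars are means of 2. The mitochondrial share with IFN-γ is below vehicle in sgRNA1 and sgRNA2 cells and above it in control cells, where the ratio reaches 0.880 and 1.03.

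Other abundant transcripts moved as well. Genes for cytosolic ribosomal proteins took 7.40% to 7.87% of counts in sgRNA1 cells with IFN-gamma, against 11.5% and 11.6% with vehicle, and 10.5% and 11.6% in sgRNA2 cells with IFN-gamma, against 13.2% and 13.8% with vehicle. In control cells they took 7.82% and 7.84% with IFN-gamma, against 8.83% and 8.92% with vehicle. Their part in the results on nuclear subunits was not tested.

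Much of the contrast in the mitochondrial share came from mt-Co1, the catalytic subunit of cytochrome c oxidase, which alone made up 33.2% to 61.6% of the mitochondrial counts. mt-Co1 was at 1941 and 1986 CPM in sgRNA1 cells with IFN-gamma, against 3153 and 3275 CPM with vehicle. It was at 2863 and 2684 CPM in sgRNA2 cells with IFN-gamma, against 6763 and 6711 CPM with vehicle. In control cells it was at 6169 and 6604 CPM with IFN-gamma, against 2194 and 1971 CPM with vehicle. The high libraries were thus the treated control cells and the untreated sgRNA2 cells, and within each line the treated and untreated libraries did not overlap. The log2 fold change with IFN-gamma was -0.71 ± 0.05 in sgRNA1 cells (adjusted p = 4.36e-10), -1.28 ± 0.05 in sgRNA2 cells (adjusted p = 1.53e-13) and 1.62 ± 0.05 in control cells (adjusted p = 2.67e-15). The difference of responses from control was -2.33 ± 0.07 for sgRNA1 and -2.90 ± 0.07 for sgRNA2 (edgeR, adjusted p = 1.11e-13 and 5.82e-16), both against the same control libraries.

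Leaving mt-Co1 out, the share of the other 12 mitochondrial mRNAs was 0.300% and 0.290% in sgRNA1 cells with IFN-gamma, against 0.460% and 0.472% with vehicle, and 0.285% and 0.217% in sgRNA2 cells with IFN-gamma, against 0.409% and 0.433% with vehicle. In control cells it was 0.399% and 0.506% with IFN-gamma, against 0.419% and 0.393% with vehicle, and these libraries overlapped. The fall in the guide lines was therefore present without mt-Co1, while the rise in control cells was not seen in the summed deposited rows of the other genes. Those rows lack the reads counted on the chromosome 1 copies. With the copies added, 8 mitochondrial genes were called in control cells. The 5 called higher were mt-Co1, mt-Co2, mt-Co3, mt-Atp6 and mt-Nd4, so called rises were not confined to mt-Co1.

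Gene by gene, IFN-gamma lowered 12 of 13 mitochondrial mRNAs in sgRNA1 cells and raised none, where 61.4% of all tested genes were called, 31.7% as higher and 29.6% as lower. In sgRNA2 cells 10 of 13 fell and none rose, where 59.7% of all genes were called, 30.5% as higher and 29.2% as lower. In control cells 5 rose, 3 fell and 5 were not called, where 70.4% of all genes were called, 36.4% as higher and 34.1% as lower. These were 38.5% higher and 23.1% lower, so in control cells the share called in either direction was below that over all genes. The median log2 fold change over the 13 was -0.90 in sgRNA1 cells, -0.86 in sgRNA2 cells and 0.20 in control cells, against medians of -0.00066, -0.016 and 0.011 over all tested genes.

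The mitochondrial genes of complex I, which form the proton-pumping membrane arm, fell throughout in sgRNA1 cells, where all 7 were called, and 6 of 7 fell in sgRNA2 cells. mt-Nd1 was at 497 and 526 CPM in sgRNA1 cells with IFN-gamma against 1023 and 1078 CPM with vehicle, and at 487 and 400.2 CPM in sgRNA2 cells with IFN-gamma against 785 and 819 CPM with vehicle. In control cells it was at 848 and 943 CPM with IFN-gamma against 1089 and 988 CPM with vehicle, a nearer pair of groups that still did not overlap. Its log2 fold change was -1.04 ± 0.07 in sgRNA1 cells, -0.86 ± 0.07 in sgRNA2 cells and -0.21 ± 0.07 in control cells (adjusted p = 8.66e-10, 1.47e-08 and 0.0137). The call in control cells was lost with DESeq2 (adjusted p = 0.0802), and without control IFN-gamma replicate 1 or control vehicle replicate 1.

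mt-Nd2 fell by 1.14 in sgRNA1 cells and by 1.25 in sgRNA2 cells on the log2 scale, and its value in control cells was -0.09 ± 0.08 (adjusted p = 0.376). mt-Nd5 fell by 0.57 and by 0.82 in the guide lines and was at 0.07 ± 0.06 in control cells (adjusted p = 0.306). mt-Nd4 differed in that it rose in control cells, by 0.46 ± 0.08, while it fell by 0.75 in sgRNA1 cells and by 1.06 in sgRNA2 cells. mt-Nd6 is the one protein gene read from the opposite strand; with the unstranded kit that the labels name, it cannot be told apart from transcripts of the other strand. Its fold changes were -0.60 ± 0.18 in sgRNA1 cells and -0.56 ± 0.19 in sgRNA2 cells, both called but not under DESeq2 (adjusted p = 0.0728 and 0.127), and -0.25 ± 0.18 in control cells (adjusted p = 0.232). In sgRNA2 cells mt-Nd6 was at 67.1 and 34.3 CPM with IFN-gamma against 63.2 and 83.7 CPM with vehicle, so the libraries overlapped, and without sgRNA2 IFN-gamma replicate 2 the value was -0.12 (edgeR, adjusted p = 0.386).

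mt-Cytb, the single mitochondrial subunit of complex III, was lower with IFN-gamma in all 3 lines. Its levels were 455 and 467 CPM in sgRNA1 cells with IFN-gamma against 842 and 876 CPM with vehicle, 309 and 268 CPM in sgRNA2 cells with IFN-gamma against 597 and 621 CPM with vehicle, and 497 and 548 CPM in control cells with IFN-gamma against 711 and 669 CPM with vehicle. The fall was 0.90 ± 0.06 in sgRNA1 cells, 1.08 ± 0.06 in sgRNA2 cells and 0.40 ± 0.06 in control cells on the log2 scale, and the guide responses differed from that of control cells by -0.50 ± 0.08 for sgRNA1 and -0.68 ± 0.08 for sgRNA2 (edgeR, adjusted p = 6.41e-05 and 1.24e-06).

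mt-Nd3 went another way from its upstream neighbour mt-Co3 in control cells. It was at 34.9 and 55.0 CPM in control cells with IFN-gamma against 147.8 and 185 CPM with vehicle, a log2 fold change of -1.89 ± 0.25 (adjusted p = 1.98e-06), whereas mt-Co3 rose by 1.27 ± 0.23. In sgRNA1 cells mt-Nd3 fell by 1.12 ± 0.25, and in sgRNA2 cells, where it was low before treatment at 47.5 and 71.2 CPM, its fold change was -0.43 ± 0.27 (adjusted p = 0.178). It was the only mitochondrial gene whose response was higher than in control cells, by 1.47 ± 0.37 for sgRNA2 (edgeR, adjusted p = 0.00179), and for sgRNA1 the difference was 0.77 ± 0.35 (adjusted p = 0.0745).

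Of the 13 genes, 7 share reads with the chromosome 1 copies, which took 29551 to 66599 counts per library. The copy held 74.0% to 85.6% of the joint counts for mt-Co2, 60.7% to 84.7% for mt-Nd4l, 51.6% to 78.6% for mt-Co3, 46.9% to 73.6% for mt-Atp6 and 4.12% to 27.2% for mt-Nd3, but at most 1.03% for mt-Nd4 and 0.501% for mt-Co1. The split varied between libraries of 1 group: the ratio of the higher to the lower replicate reached 2.14 for mt-Atp6 and 1.85 for mt-Co2 as deposited, and at most 1.24 and 1.27 after the copy was added. A further pseudogene, Gm13340 on chromosome 2, is 97.6% identical to mt-Co1 over its length, and was not added.

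**Figure D2:**
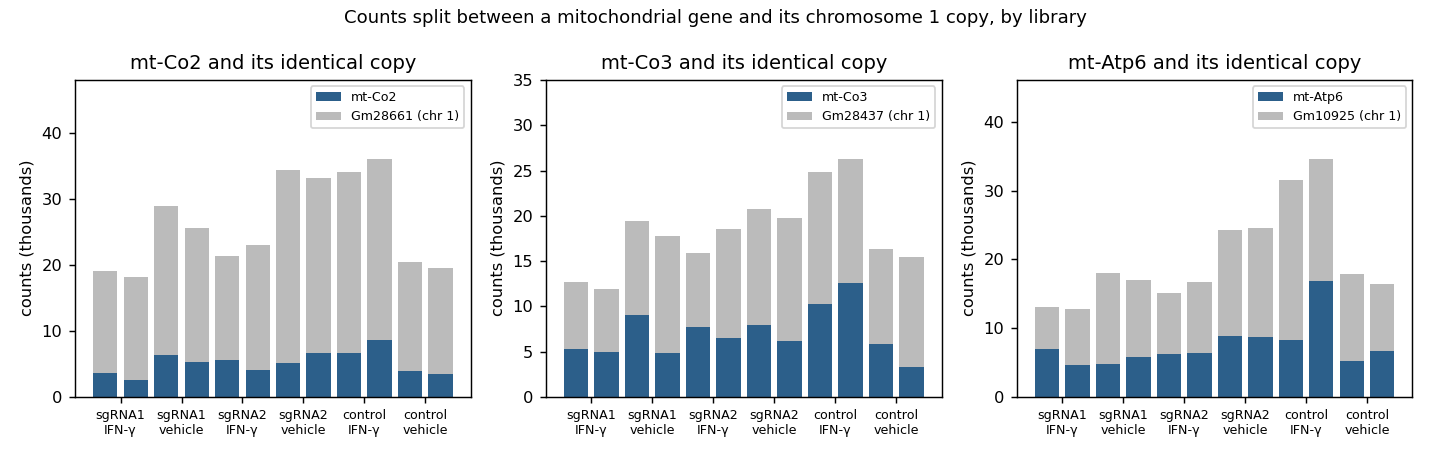
Counts (in units of 1000) of mt-Co2, mt-Co3 and mt-Atp6 (blue) and of the matching chromosome 1 pseudogene (grey, stacked) in each library, with replicates 1 and 2 side by side in each group. The grey part holds 46.9% to 85.6% of the stack, and replicates are closer in total height than in the blue part alone.

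With the copies added, mt-Co2 and mt-Co3 of complex IV and the ATP synthase channel subunit mt-Atp6 showed the same contrast as mt-Co1. mt-Co2 with its copy was at 891 and 900.0 CPM in sgRNA1 cells with IFN-gamma against 1457 and 1543 CPM with vehicle, at 1142 and 900.1 CPM in sgRNA2 cells with IFN-gamma against 1782 and 1881 CPM with vehicle, and at 1648 and 1853 CPM in control cells with IFN-gamma against 1058 and 1023 CPM with vehicle. The summed log2 fold change was -0.74 ± 0.08 in sgRNA1 cells, -0.84 ± 0.08 in sgRNA2 cells and 0.75 ± 0.08 in control cells. As deposited it was -1.08 ± 0.21, -0.48 ± 0.21 (adjusted p = 0.0537, not called) and 1.00 ± 0.21 in the same order. No line overlapped between treatments once the copies were added.

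For mt-Co3 the summed fold changes were -0.79 ± 0.07 in sgRNA1 cells, -0.47 ± 0.07 in sgRNA2 cells and 0.63 ± 0.07 in control cells on the log2 scale, where the deposited row alone gave 1.27 ± 0.23 in control cells. For mt-Atp6 they were -0.64 ± 0.09 in sgRNA1 cells, -0.85 ± 0.09 in sgRNA2 cells and 0.89 ± 0.09 in control cells, where the deposited row alone gave -0.09 ± 0.25 in sgRNA1 cells (adjusted p = 0.772) and lost its call in control cells without control IFN-gamma replicate 2 (adjusted p = 0.108). mt-Nd4l with its copy fell by 1.39 in sgRNA1 cells and by 1.60 in sgRNA2 cells, and was at 0.16 ± 0.16 in control cells (adjusted p = 0.376). mt-Atp8 had 75 to 458 counts per library, and fell in both guide lines, at -1.68 ± 0.37 in sgRNA1 cells and -1.82 ± 0.35 in sgRNA2 cells as deposited, with 0.50 ± 0.34 in control cells (adjusted p = 0.209).

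Of the 6 mitochondrial genes without an annotated copy, mt-Atp8, whose values are given above, overlaps mt-Atp6, which has one. It also lies between mt-Co2 and mt-Atp6, whose copies are neighbours on chromosome 1. Whether reads of mt-Atp8 were lost to an unannotated copy there was not tested. The other 5, mt-Nd1, mt-Nd2, mt-Nd5, mt-Nd6 and mt-Cytb, were all called lower in sgRNA1 and in sgRNA2 cells, with medians of -0.90 and -0.86. In control cells 2 of the 5 were called lower and none higher, with a median of -0.21. Within control cells the called rises were thus in mt-Co1, mt-Co2, mt-Co3, mt-Atp6 and mt-Nd4, while mt-Nd1, mt-Nd3 and mt-Cytb were lower. The response of the guide lines was lower than that of control cells for 11 of 13 genes with sgRNA1, where 55.1% of all genes were called for this difference, 26.9% higher and 28.2% lower, and for 11 of 13 with sgRNA2, where 65.1% were called, 30.4% higher and 34.7% lower; mt-Nd3 and mt-Nd6 were the genes not called lower with either guide.

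**Figure D3:**
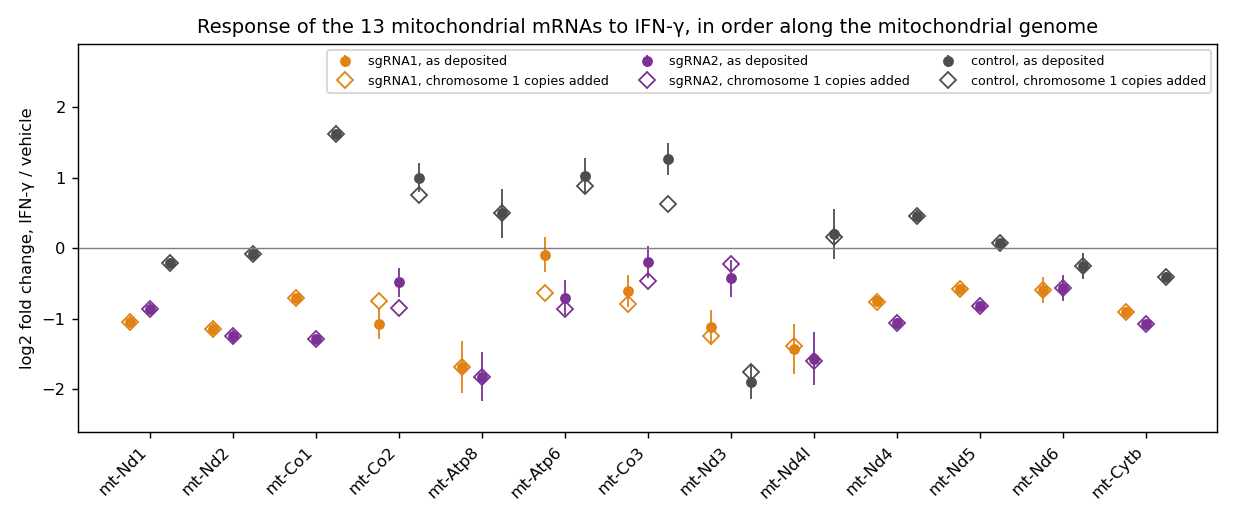
log2 fold change of IFN-γ over vehicle for the 13 mitochondrial mRNAs, in order along the genome, in sgRNA1 (orange), sgRNA2 (purple) and control cells (grey); filled circles are the deposited rows with SE, and open diamonds have the chromosome 1 copy added. Control values for mt-Co1, mt-Co2, mt-Atp6 and mt-Co3 lie above 0 and those for mt-Nd3 and mt-Cytb below it, and no value of the guide lines lies above 0.

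The guide lines also differed from control cells before any treatment. With vehicle, 6 of 13 mitochondrial mRNAs were higher and 1 lower in sgRNA1 than in control cells (52.5% of all genes called, 25.6% higher and 26.9% lower), and 6 were higher and 3 lower in sgRNA2 cells (73.3% of all genes called, 38.3% higher and 35% lower). These were 46.2% higher and 7.69% lower with sgRNA1, and 46.2% and 23.1% with sgRNA2. The share called in either direction was near that over all genes for both guides. With sgRNA1 and vehicle, DESeq2 called 4 in place of 7, all higher, and with sgRNA2 it called 3 higher and 3 lower. Upper quartile scaling gave 7 higher and none lower with sgRNA1, and 7 higher and 2 lower with sgRNA2. mt-Co1 was higher than in control cells by 0.63 ± 0.05 in sgRNA1 cells and by 1.69 ± 0.05 in sgRNA2 cells, and mt-Nd4 by 0.34 ± 0.08 and 0.49 ± 0.08. mt-Nd1 was at 0.02 ± 0.07 in sgRNA1 cells and lower by -0.37 ± 0.07 in sgRNA2 cells, and mt-Nd3 was lower by -0.58 ± 0.23 in sgRNA1 cells and -1.49 ± 0.24 in sgRNA2 cells. The sgRNA1 call for mt-Nd3 was lost when its copy was added (adjusted p = 0.0568) and with DESeq2 (adjusted p = 0.272). The lines of the guides differed from each other with vehicle in 5 of 13 genes (62.3% of all genes called, 33.2% higher and 29.1% lower), with mt-Co1 higher in sgRNA2 by 1.07 ± 0.05 and mt-Cytb and mt-Nd1 lower by -0.50 ± 0.06 and -0.39 ± 0.07. These 5 were 15.4% higher and 23.1% lower, so the share called in either direction was below that over all genes. The count of 5 was 3 with DESeq2, 6 with 3 of them higher under upper quartile scaling, and 8 without sgRNA2 IFN-gamma replicate 2.

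With IFN-gamma the guide lines held less of most mitochondrial mRNAs than control cells: 11 of 13 were lower and none higher with sgRNA1 (64.9% of all genes called, 31.6% higher and 33.3% lower), and likewise 11 lower and none higher with sgRNA2 (61.8% of all genes called, 30.2% higher and 31.6% lower). mt-Co1 was lower by -1.70 ± 0.05 in sgRNA1 cells and by -1.20 ± 0.05 in sgRNA2 cells, and mt-Nd2 by -0.95 ± 0.09 and -1.24 ± 0.09. The genes not called with either guide were mt-Nd6 and mt-Nd3, the second at 0.19 ± 0.27 in sgRNA1 cells and -0.03 ± 0.27 in sgRNA2 cells (adjusted p = 0.552 and 0.944).

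Nuclear subunit mRNAs mostly fell with IFN-gamma in every line. In sgRNA1 cells 74 of 78 fell and 3 rose, in sgRNA2 cells 52 fell and 9 rose, and in control cells 64 fell and 6 rose, against 29.6%, 29.2% and 34.1% of all tested genes called lower. With upper quartile scaling 68 were called in sgRNA2 cells, 5 of them higher, with a median of -0.40. The median log2 fold change was -0.68 in sgRNA1 cells, -0.28 in sgRNA2 cells and -0.46 in control cells. In bulk RNA, fewer cells of a kind and less RNA per cell cannot be told apart. Mitochondrial and nuclear subunit mRNAs were thus both lower in the guide lines, whereas in control cells the nuclear ones fell while the mitochondrial ones were split.

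By complex, the nuclear medians with IFN-gamma were -0.66 for complex I, -0.37 for complex II, -0.57 for complex III, -0.83 for complex IV and -0.93 for complex V in sgRNA1 cells. In sgRNA2 cells they were -0.26, -0.12, -0.20, -0.47 and -0.34 in the same order, and in control cells -0.47, -0.08, -0.39, -0.44 and -0.62. Complex II had the median nearest 0 in each line. These medians are descriptions, and differences between complexes were not tested.

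**Figure D4:**
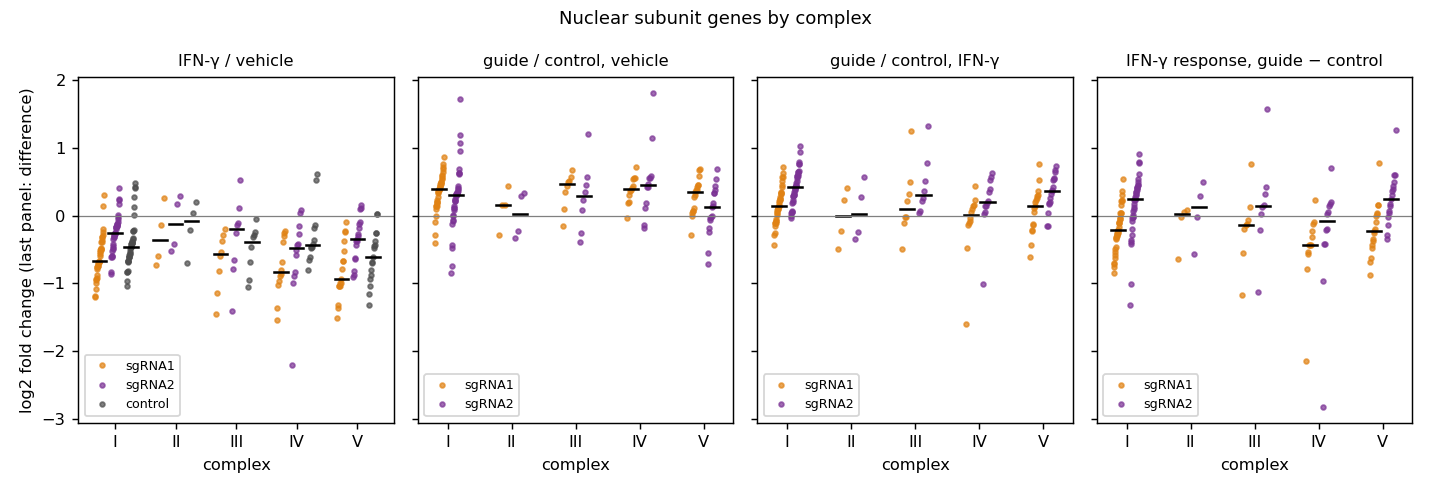
log2 fold changes of the 78 nuclear subunit genes by complex (points are genes, bars are medians): IFN-γ over vehicle in each line, each guide over control with vehicle and with IFN-γ, and the difference in IFN-γ response from control. Medians of the first panel are all below 0, from -0.93 (complex V, sgRNA1) to -0.08 (complex II, control), and those of the second panel are all above 0.

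Within complexes the medians differed by role. Complex I has 7 nuclear core subunits that carry the flavin and iron-sulphur clusters. The other 30 members named Nduf, Ndufa4 among them, are counted here as accessory subunits. The core genes had medians of -0.28 in sgRNA1 cells, -0.01 in sgRNA2 cells and -0.23 in control cells, against -0.69, -0.29 and -0.50 for the accessory genes. In ATP synthase, 5 genes of the catalytic F1 head had medians of -0.24, -0.12 and -0.26, whereas 5 small membrane subunits had -1.32, -0.82 and -0.88, in sgRNA1, sgRNA2 and control cells.

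Transcript length also moved with the response. Across 74 nuclear members with an annotated principal transcript, Spearman's rho between transcript length and the IFN-gamma fold change was 0.506 in sgRNA1 cells, 0.449 in sgRNA2 cells and 0.152 in control cells, and across 8855 other tested genes it was 0.37, 0.185 and 0.162. Members under 1000 bases had a median of -0.80 in sgRNA1 cells against -0.54 for 552 other genes of that length, -0.42 against -0.31 in sgRNA2 cells, and -0.47 against -0.23 in control cells. These correlations are across genes, which share libraries and are not independent replicates. The part of length in the contrast between roles was not tested.

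Among the core subunits of complex I, Ndufs1, the largest iron-sulphur subunit, was at 98.4 and 99.0 CPM in sgRNA1 cells with IFN-gamma against 123 and 121 CPM with vehicle, at 96.6 and 98.9 CPM in sgRNA2 cells with IFN-gamma against 82.5 and 82.5 CPM with vehicle, and at 92.5 and 94.1 CPM in control cells with IFN-gamma against 148 and 149 CPM with vehicle. The treated groups lay close together, and the untreated groups far apart. Its fold change was -0.31 ± 0.04 in sgRNA1 cells, 0.25 ± 0.04 in sgRNA2 cells and -0.67 ± 0.04 in control cells, so that the response was higher than in control cells by 0.36 ± 0.06 with sgRNA1 and by 0.92 ± 0.06 with sgRNA2 (edgeR, adjusted p = 5.26e-05 and 2.7e-10). Ndufa10, an accessory subunit of the membrane arm, also had a higher response than in control cells with both guides, but with another sign in sgRNA1 cells: it was at 0.15 ± 0.05 in sgRNA1 cells, 0.40 ± 0.05 in sgRNA2 cells and -0.39 ± 0.05 in control cells. The small rise in sgRNA1 cells lost its call with DESeq2 (adjusted p = 0.0747) and with upper quartile scaling (adjusted p = 0.393).

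Ndufv3, an accessory subunit beside the NADH-oxidising module, went the other way between lines. It was at 45.9 and 38.1 CPM in sgRNA1 cells with IFN-gamma against 54.7 and 53.0 CPM with vehicle, at 65.8 and 51.9 CPM in sgRNA2 cells with IFN-gamma against 96.8 and 112 CPM with vehicle, and at 42.5 and 46.3 CPM in control cells with IFN-gamma against 32.2 and 31.2 CPM with vehicle. It fell by 0.36 ± 0.10 in sgRNA1 cells and by 0.84 ± 0.10 in sgRNA2 cells and rose by 0.48 ± 0.11 in control cells. Ndufa6, which joins the peripheral arm, showed the same signs at -0.31 ± 0.11, -0.61 ± 0.10 and 0.40 ± 0.11. Ndufb2, in the membrane arm, fell in all 3 lines, by 0.88 in sgRNA1 cells, 0.42 in sgRNA2 cells and 1.04 in control cells.

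In complex II, which passes electrons from succinate to ubiquinone, the flavoprotein subunit Sdha rose in all 3 lines, by 0.26 ± 0.05 in sgRNA1 cells, 0.18 ± 0.05 in sgRNA2 cells and 0.20 ± 0.05 in control cells. With upper quartile scaling 5 nuclear genes were called higher in sgRNA2 cells in place of 9. Whether Sdha was among those 5 was not checked. The iron-sulphur subunit Sdhb fell in sgRNA1 cells (-0.13 ± 0.04) and in control cells (-0.21 ± 0.04) and rose in sgRNA2 cells (0.29 ± 0.04). The membrane anchors differed: Sdhd fell in all 3 lines, by 0.72, 0.42 and 0.70 in sgRNA1, sgRNA2 and control cells, while Sdhc fell in sgRNA1 and sgRNA2 cells by 0.60 and 0.52 and was at 0.04 ± 0.05 in control cells (adjusted p = 0.451). The Sdhc response was lower than in control cells by -0.64 ± 0.07 for sgRNA1 and -0.56 ± 0.07 for sgRNA2.

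In complex III, 2 small subunits showed large and opposite differences between lines. Uqcrq, which lies beside the cytochrome b core, was at 190.4 and 171 CPM in sgRNA1 cells with IFN-gamma against 219 and 223 CPM with vehicle, at 189.9 and 189 CPM in sgRNA2 cells with IFN-gamma against 132 and 131 CPM with vehicle, and at 77.0 and 75.0 CPM in control cells with IFN-gamma against 155 and 159 CPM with vehicle. The treated control libraries were the lowest and stood far from every other group. Its fold change was -0.29 ± 0.05 in sgRNA1 cells, 0.53 ± 0.05 in sgRNA2 cells and -1.05 ± 0.05 in control cells, and the response was above that of control cells by 0.76 ± 0.07 for sgRNA1 and 1.57 ± 0.07 for sgRNA2 (edgeR, adjusted p = 5.55e-08 and 1.46e-12).

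Uqcrh, the acidic hinge protein at the cytochrome c side, whose promoter is printed above, was at 90.3 and 86.6 CPM in sgRNA1 cells with IFN-gamma against 234 and 251 CPM with vehicle, at 136 and 125 CPM in sgRNA2 cells with IFN-gamma against 338 and 359 CPM with vehicle, and at 126 and 123 CPM in control cells with IFN-gamma against 152 and 151 CPM with vehicle. The untreated guide lines were the high groups. It fell by 1.45 ± 0.05 in sgRNA1 cells, 1.41 ± 0.05 in sgRNA2 cells and 0.28 ± 0.05 in control cells. Of the large core proteins, Uqcrc1 was at -0.19 ± 0.05 in sgRNA1 cells, 0.11 ± 0.05 in sgRNA2 cells (adjusted p = 0.0639) and -0.32 ± 0.05 in control cells. Uqcrc2 was at -0.60 ± 0.04 in sgRNA1 cells, -0.26 ± 0.04 in sgRNA2 cells and -0.05 ± 0.05 in control cells (adjusted p = 0.339). The Rieske iron-sulphur protein Uqcrfs1 was at -0.37 ± 0.05, -0.11 ± 0.05 (adjusted p = 0.075) and -0.24 ± 0.05.

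**Figure D5:**
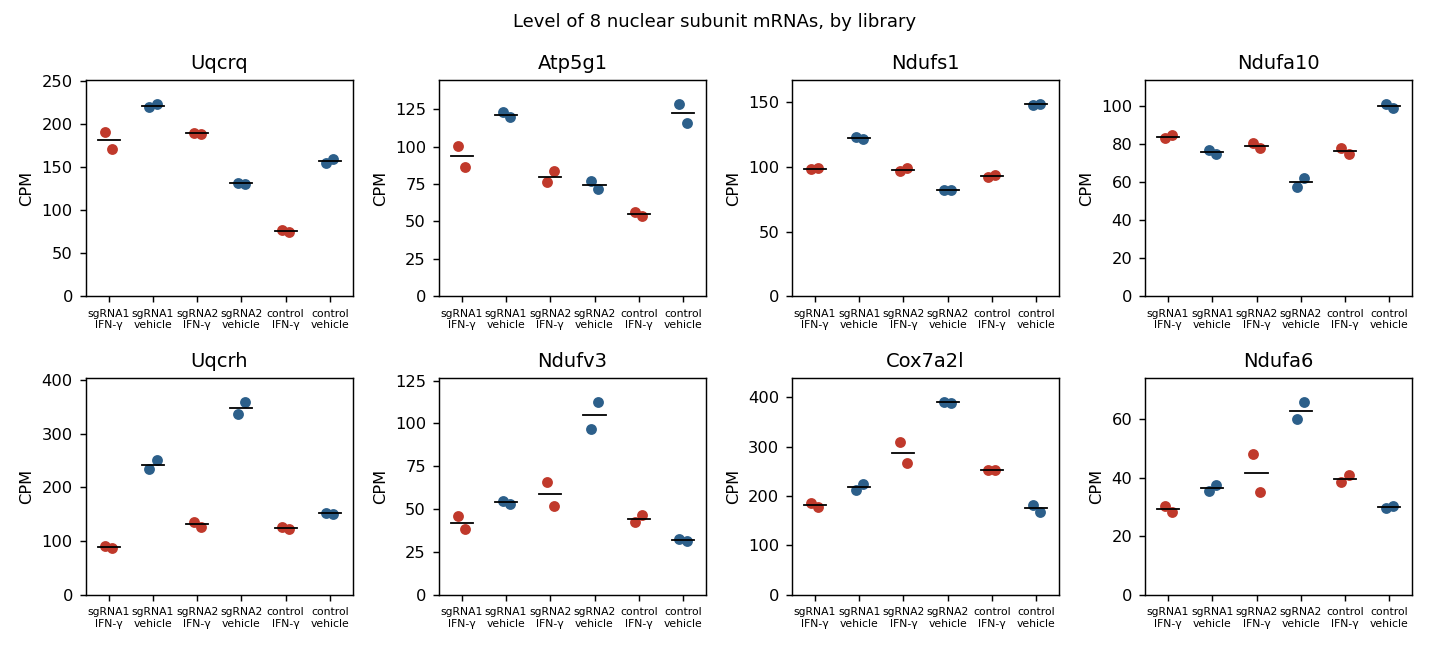
Level (CPM) of Uqcrq, Atp5g1, Ndufs1 and Ndufa10 (top) and of Uqcrh, Ndufv3, Cox7a2l and Ndufa6 (bottom) in each library, red with IFN-γ and blue with vehicle, with bars at means of 2. In the top row the response to IFN-γ is higher in the guide lines than in control cells, and in the bottom row it is lower.

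In complex IV, Cox7a2l, a subunit found in supercomplexes of complexes III and IV, was at 186 and 177 CPM in sgRNA1 cells with IFN-gamma against 211 and 224 CPM with vehicle, at 308 and 267 CPM in sgRNA2 cells with IFN-gamma against 390.0 and 389 CPM with vehicle, and at 253 and 253 CPM in control cells with IFN-gamma against 182 and 168 CPM with vehicle. It fell by 0.26 ± 0.06 in sgRNA1 cells and by 0.44 ± 0.06 in sgRNA2 cells and rose by 0.53 ± 0.06 in control cells. Cox7b, a small membrane subunit encoded on the X chromosome, fell in all 3 lines, by 1.37, 1.00 and 0.80 in sgRNA1, sgRNA2 and control cells, and Cox4i1, a regulatory subunit, by 0.90, 0.41 and 0.46. The matrix subunit Cox5a fell in sgRNA1 and control cells by 0.39 and 0.61 and was at 0.09 ± 0.05 in sgRNA2 cells (adjusted p = 0.151). Cox7a1, a heart and muscle form, had 2 to 29 counts per library and is too low to compare.

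In ATP synthase, Atp5g1 encodes the proton-carrying c subunit together with Atp5g2 and Atp5g3. Atp5g1 was at 101 and 86.4 CPM in sgRNA1 cells with IFN-gamma against 123 and 119.9 CPM with vehicle, at 76.2 and 83.9 CPM in sgRNA2 cells with IFN-gamma against 77.3 and 71.5 CPM with vehicle, and at 56.3 and 53.6 CPM in control cells with IFN-gamma against 129 and 116 CPM with vehicle. It fell by 0.38 ± 0.07 in sgRNA1 cells and by 1.15 ± 0.07 in control cells, and was at 0.11 ± 0.07 in sgRNA2 cells (adjusted p = 0.212). Atp5g2 fell by 0.66 and 0.28 in sgRNA1 and sgRNA2 cells and was at 0.02 ± 0.05 in control cells (adjusted p = 0.772), and Atp5g3 fell by 1.04, 0.44 and 1.04 in sgRNA1, sgRNA2 and control cells. The 3 genes for the same mature protein thus had unlike values, and in control cells Atp5g1 and Atp5g3 fell while Atp5g2 was not called.

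Atp5b, the catalytic subunit of the F1 head, was at 2084 and 1990 CPM in sgRNA1 cells with IFN-gamma against 2390 and 2376 CPM with vehicle, at 2161 and 2120 CPM in sgRNA2 cells with IFN-gamma against 2008 and 1982 CPM with vehicle, and at 1918 and 1859 CPM in control cells with IFN-gamma against 2249 and 2277 CPM with vehicle. Its fold changes were small: -0.23 ± 0.04, 0.10 ± 0.04 and -0.26 ± 0.04 in sgRNA1, sgRNA2 and control cells. Atp5k, a small membrane subunit at the dimer interface whose promoter is printed above, was at 33.6 and 30.0 CPM in sgRNA1 cells with IFN-gamma against 85.6 and 96.7 CPM with vehicle, at 49.0 and 23.8 CPM in sgRNA2 cells with IFN-gamma against 49.8 and 80.7 CPM with vehicle, and at 23.6 and 30.9 CPM in control cells with IFN-gamma against 54.8 and 80.7 CPM with vehicle. Its replicates were furthest apart in sgRNA2 cells and in control cells with vehicle. In sgRNA2 cells the higher treated library, at 49.0 CPM, lay just under the lower untreated one, at 49.8 CPM. The falls were 1.51 ± 0.25, 0.87 ± 0.25 and 1.32 ± 0.26 in sgRNA1, sgRNA2 and control cells. Atp5mpl and Atp5md, other small membrane subunits, fell by 1.36 and 1.32 in sgRNA1 cells, by 0.82 and 0.90 in sgRNA2 cells and by 0.48 and 0.88 in control cells.

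With vehicle, nuclear subunit mRNAs were higher in the guide lines than in control cells. In sgRNA1 cells 60 of 78 were higher and 5 lower, with a median of 0.38, and in sgRNA2 cells 48 were higher and 14 lower, with a median of 0.29; upper quartile scaling gave 59 higher and 8 lower in sgRNA2 cells. Among all tested genes 25.6% were higher with sgRNA1 and 38.3% with sgRNA2. Members under 1000 bases had medians of 0.42 with sgRNA1 and 0.33 with sgRNA2, against 0.42 and 0.49 for 552 other genes of that length. Longer members had 0.15 and 0.082, against -0.00078 and -0.0097 for other longer genes. The part of length in this difference was not tested. Ndufv3 was higher by 0.77 ± 0.11 in sgRNA1 cells and by 1.72 ± 0.10 in sgRNA2 cells, Uqcrh by 0.68 ± 0.05 and 1.20 ± 0.05, and Cox7a2l by 0.31 ± 0.06 and 1.15 ± 0.06. Among the lower genes, Ndufs1 was at -0.28 ± 0.04 in sgRNA1 cells and -0.85 ± 0.04 in sgRNA2 cells, Ndufa10 at -0.40 ± 0.05 and -0.74 ± 0.05, and the F1 subunit Atp5a1 at -0.28 ± 0.04 and -0.56 ± 0.04. Ribosomal protein genes were also higher than in control cells, with medians of 0.41 and 0.60, and their part in this difference was not tested.

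The guide lines differed from each other with vehicle in 44 of 78 nuclear genes, 12 higher and 32 lower in sgRNA2 than in sgRNA1 cells (15.4% and 41%, against 33.2% and 29.1% of all genes), with a median of -0.12; upper quartile scaling gave 15 higher and 25 lower. Ndufv3 and Cox7a2l were higher in sgRNA2 cells by 0.96 ± 0.10 and 0.84 ± 0.06, and Uqcrq and Atp5g1 lower by -0.75 ± 0.05 and -0.71 ± 0.07. The share called in either direction was below the 62.3% over all genes, so the count is nothing particular to these genes. No difference from control cells is attributed to Cebpd here.

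With IFN-gamma, 31 of 78 nuclear genes were higher and 16 lower in sgRNA1 than in control cells, and 57 were higher and 4 lower in sgRNA2 cells, with medians of 0.12 and 0.36. These were 39.7% higher and 20.5% lower with sgRNA1, against 31.6% and 33.3% of all genes, and 73.1% and 5.13% with sgRNA2, against 30.2% and 31.6%. With upper quartile scaling these were 43 higher and 11 lower in sgRNA1 cells, and 68 higher and 2 lower in sgRNA2 cells. Upper quartile scaling also moved the median over all genes, most for sgRNA2 against control cells with vehicle, where it was 0.23 in place of 0.06 (log2). Members under 1000 bases had medians of 0.14 with sgRNA1 and 0.41 with sgRNA2, against 0.14 and 0.43 for 552 other genes of that length. Longer members had 0.11 and 0.27, against 0.042 and 0.018 for other longer genes. The part of length here was not tested. Uqcrq was the furthest above control cells with both guides, by 1.25 ± 0.05 and 1.32 ± 0.05, followed with sgRNA1 by Atp5g1 at 0.77 ± 0.07 and Ndufb2 at 0.71 ± 0.07. Atp5g2 and Sdhc were lower in sgRNA1 cells by -0.61 ± 0.05 and -0.49 ± 0.05, and in sgRNA2 cells Atp5g2 was at 0.03 ± 0.05 (adjusted p = 0.569) and Sdhc lower by -0.24 ± 0.05.

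As differences in response, 10 of 78 nuclear genes were higher and 35 lower in sgRNA1 than in control cells, and 32 were higher and 15 lower in sgRNA2 than in control cells (26 and 19 with upper quartile scaling, which for sgRNA1 called 43, of them 6 higher). These were 12.8% higher and 44.9% lower for sgRNA1, against 26.9% and 28.2% of all genes, and 41% and 19.2% for sgRNA2, against 30.4% and 34.7%. The share called in either direction was near that over all genes for both guides. The direction thus differed between guides for the nuclear set, with medians of -0.22 and 0.17, while for the mitochondrial genes the medians were -1.12 and -1.46. Both use the same control libraries, and the guides' responses were not tested against each other.

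The other genes of the pathway were counted from lists by function. Over all tested genes IFN-gamma raised 31.7% and lowered 29.6% in sgRNA1 cells, raised 30.5% and lowered 29.2% in sgRNA2 cells, and raised 36.4% and lowered 34.1% in control cells, and the shares of each list are set beside these. Of 48 assembly factors, IFN-gamma raised 10 and lowered 26 in sgRNA1 cells, raised 13 and lowered 12 in sgRNA2 cells, and raised 6 and lowered 28 in control cells, with medians of -0.35, -0.01 and -0.46. The shares lowered were 54.2% in sgRNA1 cells, 25% in sgRNA2 cells, near that over all genes, and 58.3% in control cells. Of 20 genes for mitochondrial DNA maintenance and transcription, 2 rose and 8 fell in sgRNA1 cells, 4 rose and 6 fell in sgRNA2 cells, and 3 rose and 11 fell in control cells, with 40%, 30% and 55% lowered. Tfam, which packages mitochondrial DNA and starts its transcription, was at -0.66 in sgRNA1 cells, -0.29 in sgRNA2 cells and -0.69 in control cells.

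The list of mitochondrial RNA processing and stability had 19 tested genes of 20, and 7 rose and 6 fell in sgRNA1 cells, 15 rose and 1 fell in sgRNA2 cells, and 4 rose and 12 fell in control cells. The shares were 36.8% raised and 31.6% lowered in sgRNA1 cells, near those over all genes, 78.9% raised and 5.26% lowered in sgRNA2 cells, and 21.1% raised and 63.2% lowered in control cells. Its medians were 0.10, 0.47 and -0.58. Lrpprc, which stabilises mitochondrial mRNAs, was at 0.10 in sgRNA1 cells (edgeR, adjusted p = 0.112), 0.65 in sgRNA2 cells and -0.91 in control cells. Fastkd5, which takes part in cutting precursors at junctions without a tRNA, was at -0.69 in sgRNA1 cells, -0.20 in sgRNA2 cells (edgeR, adjusted p = 0.473) and -2.43 in control cells. The response of 12 of the 19 (63.2%) was higher than in control cells with each guide, against 26.9% of all genes for sgRNA1 and 30.4% for sgRNA2, with medians of 0.68 for sgRNA1 and 1.41 for sgRNA2, where the mitochondrial mRNAs themselves had -1.12 and -1.46.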

How the data were processed

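The authors deposited whole-number counts of reads per gene for 12 libraries, made per the labels from total RNA with a kit that does not mark strand. Per the submitters' processing notes, STAR 2.4.0, HTSeq and DESeq2 1.10 were used with build mm10; the annotation, the strand setting and what became of multiply mapped reads were not given there. Genes were tested with edgeR 4.0.16 in R 4.3.3 (filterByExpr, TMM scaling, glmQLFit and glmQLFTest over all 6 groups, Benjamini-Hochberg over 13601 genes); SE is the absolute log2 fold change over the square root of F. The biological coefficient of variation was 4.67%. DESeq2 1.42.0, other scalings, no filter, a replicate block, leaving out each library and adding the chromosome 1 copies (chosen after seeing the data) were alternatives. Named genes were all mitochondrial members, nuclear ones fixed by role, and the 4 largest called rises and falls per comparison, each then also given in other comparisons; which of these to describe, the genes named from other lists and the printed sequences were chosen with values seen. Members and lists were chosen with earlier results of these data known. The fitting steps were tested on simulated data. Gene models came from GENCODE vM21 (GRCm38). Same-numbered libraries correlated between -0.0788 and 0.0642, so numbers were not used as pairs. One member's own values are not reported here.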

Additional observations from a re-analysis of the deposited data

Results flagged for a closer look

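The response to IFN-gamma differed between guide lines and control cells by a test of the difference itself (edgeR interaction term) in 11 of 13 mitochondrial and 45 of 78 nuclear genes for sgRNA1, and in 12 and 47 for sgRNA2. Over all tested genes 55.1% were called for sgRNA1 and 65.1% for sgRNA2, so the nuclear counts were near that background. For sgRNA1 the mitochondrial differences in log2 fold change were -2.33 for mt-Co1, -2.08 for mt-Co2, -1.87 for mt-Co3, -1.12 for mt-Atp6, -2.18 for mt-Atp8, -0.498 for mt-Cytb, -0.826 for mt-Nd1, -1.05 for mt-Nd2, -1.21 for mt-Nd4, -1.63 for mt-Nd4l and -0.646 for mt-Nd5. For sgRNA2 they were -2.90 for mt-Co1, -1.48 for mt-Co2, -1.46 for mt-Co3, -1.73 for mt-Atp6, -2.32 for mt-Atp8, -0.679 for mt-Cytb, -0.642 for mt-Nd1, -1.17 for mt-Nd2, -1.52 for mt-Nd4, -1.77 for mt-Nd4l, -0.897 for mt-Nd5 and 1.47 for mt-Nd3.

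Among nuclear genes the differences for sgRNA1 were 0.779 for Atp5g1, 0.756 for Uqcrq, 0.535 for Ndufa10, 0.361 for Ndufs1, -1.17 for Uqcrh, -0.882 for Atp5mpl, -0.842 for Ndufv3 and -0.785 for Cox7a2l. For sgRNA2 they were 1.57 for Uqcrq, 1.26 for Atp5g1, 0.916 for Ndufs1, 0.793 for Ndufa10, -1.32 for Ndufv3, -1.13 for Uqcrh, -1.01 for Ndufa6 and -0.966 for Cox7a2l. Both sets use the same control libraries.

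The chromosome 1 copies of mitochondrial genes, which are not members, took at least 29551 counts in every library, and their part in the deposited values of mt-Co2, mt-Co3, mt-Atp6, mt-Nd4l and mt-Nd3 is given above.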

How the results depend on the processing

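None of the 175 named calls changed sign under the alternatives run. With the copies added, 2 values that were not called did: mt-Atp6 in sgRNA1 against control cells with vehicle (0.12 in place of -0.07) and mt-Nd4l in sgRNA2 against sgRNA1 cells with vehicle (0.06 in place of -0.18). The mitochondrial median for sgRNA2 against sgRNA1 with vehicle, -0.14, was 0.06 with the copies added and reached 0.01 when single libraries were left out. The count of mitochondrial genes called was 4 with DESeq2 for sgRNA1 against control with vehicle, and 3 for sgRNA2 against sgRNA1 with vehicle, the second ranging from 4 to 8 when single libraries were left out. Without mitochondrial genes in the total, the shares that moved by at least their SD were as follows. The mitochondrial share was 0.511% in sgRNA1 cells with IFN-gamma and 1.08% in sgRNA2 cells with vehicle. The nuclear share was 1.79% in sgRNA1 cells with vehicle. Without ribosomal protein genes the mitochondrial share was 0.550% in sgRNA1 cells with IFN-gamma and 0.883% with vehicle. It was 0.599% in sgRNA2 cells with IFN-gamma and 1.24% with vehicle. In control cells it was 1.16% with IFN-gamma, a move within its SD, and 0.671% with vehicle. The nuclear share was then 1.43% in sgRNA1 cells with IFN-gamma and 2.01% with vehicle, 1.63% in sgRNA2 cells with IFN-gamma and 1.90% with vehicle, and 1.21% in control cells with IFN-gamma and 1.64% with vehicle. These shares moved because their denominator was smaller; the cause of the other changes was not tested. With the replicate block 1 named call was lost, mt-Nd3 in sgRNA1 against control cells with vehicle (adjusted p = 0.0555, edgeR), and the same numbers did not pair the libraries. mt-Co1, mt-Nd2, mt-Nd4 and mt-Nd5 lost no call under any alternative run. Among the 175 named calls, those lost under at least 1 alternative were of mt-Atp6, mt-Atp8, mt-Co2, mt-Co3, mt-Cytb, mt-Nd1, mt-Nd3, mt-Nd4l, mt-Nd6, Ndufa10, Ndufb1, Atp5a1 and Atp5d, each in some of the comparisons. The 175 are the called mitochondrial values and the 4 largest called nuclear rises and falls per comparison. Calls of other nuclear values given above were not checked gene by gene under the alternatives. With 2 libraries a group, small differences between groups may go uncalled.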

Other observations

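The mitochondrial ribosome, which translates the 13 mitochondrial mRNAs, is built with proteins from nuclear genes, of which 80 were tested. IFN-gamma raised 4 and lowered 63 in sgRNA1 cells, raised 28 and lowered 17 in sgRNA2 cells, and raised 2 and lowered 70 in control cells, with median log2 fold changes of -0.41, 0.04 and -0.71. These were 5% raised and 78.8% lowered in sgRNA1 cells, against 31.7% and 29.6% of all genes, 35% and 21.2% in sgRNA2 cells, against 30.5% and 29.2%, and 2.5% and 87.5% in control cells, against 36.4% and 34.1%. The response was higher than in control cells for 44 and lower for 10 with sgRNA1, and higher for 64 and lower for 3 with sgRNA2 (edgeR, adjusted p below 0.05), which is 55% and 12.5% for sgRNA1, against 26.9% and 28.2% of all genes, and 80% and 3.75% for sgRNA2, against 30.4% and 34.7%.

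Of 13 genes of the tricarboxylic acid cycle, IFN-gamma raised 4 and lowered 8 in sgRNA1 cells, raised 8 and lowered 2 in sgRNA2 cells, and raised 2 and lowered 8 in control cells, with 61.5%, 15.4% and 61.5% lowered, against 29.6%, 29.2% and 34.1% of all genes. A list of 17 genes for electron supply held names outside the selection rule. Among them were the complex III subunit Cyc1 and the complex I subunit Ndufab1. Of these 17, 4 rose and 11 fell in sgRNA1 cells, 8 rose and 3 fell in sgRNA2 cells, and 3 rose and 11 fell in control cells. The shares lowered were 64.7%, 17.6% and 64.7%. Cycs, cytochrome c, was at -0.41 in sgRNA1 cells, 0.83 in sgRNA2 cells and -1.52 in control cells. Of 11 nuclear regulators 9 were tested, and 4 rose and 2 fell in sgRNA1 cells, 4 rose and 1 fell in sgRNA2 cells, and 1 rose and 5 fell in control cells, with 22.2%, 11.1% and 55.6% lowered.

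In promoters of nuclear subunit genes, the IFN-gamma activated site TTCNNNGAA was in 7.58%, against 8.37% of other tested genes and 9.55% of all genes, and the C/EBP core TTGCNNAA in 12.1%, against 9.81% and 12.2%. The SP1 motif GGGGCGG was in 27.3%, against 48.5% and 25.5%, and the HIF core ACGTG in 25.8%, against 29.4% and 21.8%. A missing match says only that these letters are not in the window.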
